A study of Mus musculus with 64 samples.

Results

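The mRNAs described here encode the enzymes and carriers that bring pyruvate into mitochondria, turn the tricarboxylic acid (TCA) cycle and pass its intermediates between mitochondrion and cytosol. The set holds 33 genes taken by symbol from a table of 55487 genes, and all 33 were among the 10097 genes with enough counts to be tested. By role, 10 act in pyruvate entry, 7 carry citrate on to succinyl-CoA, 9 take succinyl-CoA to oxaloacetate, and 7 are cytosolic isoenzymes, transaminases or carriers. Liver mRNA was sequenced in 64 libraries from male C57BL/6J mice fed ad libitum, by BRB-seq, a method that reads the 3′ ends of barcoded transcripts and counts unique molecular identifiers (UMIs). In the sh-Acsf3 group (32 libraries), an adeno-associated virus (AAV8) carrying a short hairpin RNA lowered Acsf3 in the liver; in the sh-Ctl group (32 libraries), mice were the controls of that knockdown. Livers were taken 4 weeks after the injection, at 8 zeitgeber times (ZT) 3 h apart, with 4 replicates in each of 16 groups. All mice of both groups share strain, sex, diet and time since injection. The promoter and sequence of the hairpin and the nature of its control are not given in the sources used here, nor is it stated that replicates are separate animals, so p-values measure the spread between these samples.

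Acsf3 encodes the mitochondrial synthetase that makes malonyl-CoA from malonate, the donor for lysine malonylation of mitochondrial proteins. The TCA cycle oxidises acetyl groups to feed the respiratory chain, and in liver it also supplies carbon for gluconeogenesis, lipogenesis and amino acid exchange. Pyruvate dehydrogenase admits carbon from pyruvate, with kinases that switch it off and phosphatases that switch it on. The malate-aspartate shuttle, built from malate dehydrogenases, aspartate transaminases and their carriers, moves reducing equivalents between cytosol and matrix.

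Acsf3 itself averaged 2.56 counts-per-million (CPM) in sh-Acsf3 livers and 11.3 CPM in sh-Ctl livers, a log2 difference of -2.23 ± 0.13 (SE), and it was lower at 8 of 8 times (edgeR, adjusted p = 1.8e-21). Libraries held 839265 to 9350652 UMIs (median 2026020) in sh-Acsf3 livers and 1484486 to 6063636 UMIs (median 3125677) in sh-Ctl livers. Some marker lists of other cell types moved with the treatment, while 8.26% of all tested genes rose. Of 10 stellate cell and fibroblast markers 9 rose, with a summed level of 349 to 750 CPM in sh-Acsf3 libraries and 165 to 344 CPM in sh-Ctl libraries. All 5 tested of 9 lymphocyte markers rose (summed 13.2 to 41.0 CPM in sh-Acsf3, 4.01 to 18.2 CPM in sh-Ctl), as did 6 of 9 macrophage and 2 of 3 tested cholangiocyte markers. Only 1 of 7 endothelial markers rose, and the median log2 difference of that list was 0.098. Of 9 hepatocyte markers 0 rose and 1 fell, with sums of 102331 to 140690 CPM in sh-Acsf3 and 63799 to 134180 CPM in sh-Ctl. No marker was at 0 UMIs over all libraries. Acute-phase Saa1 stood above 1000 CPM in 4 libraries, all sh-Ctl, and pancreatic mRNAs summed to over 100 CPM in 8, of which 6 were sh-Acsf3 and 2 sh-Ctl. The part of these differences in the results was not tested. In bulk tissue, fewer cells of a type and less RNA per cell cannot be told apart.

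Upstream stretches of 6 members are shown for orientation, since these genes carry the results on treatment or on time of day. RefSeq promoter records of the GRCm38.p6 build matched 31 of the 33 members, and each stretch ends just before the annotated start of the gene. The windows are chr7:80115393-80115600, minus strand for Idh2; chr16:17928220-17928469, minus strand for Slc25a1; chr19:43524606-43524855, minus strand for Got1. Those of the other three are chr13:74350281-74350490, minus strand for Sdha; chr4:140961021-140961202, plus strand for Sdhb; chr1:175625636-175625885, minus strand for Fh1. Capitals mark GGGCGG (GC box), CCAAT (the box of that name) and CACGTG (an E-box), searched on both strands.
Idh2: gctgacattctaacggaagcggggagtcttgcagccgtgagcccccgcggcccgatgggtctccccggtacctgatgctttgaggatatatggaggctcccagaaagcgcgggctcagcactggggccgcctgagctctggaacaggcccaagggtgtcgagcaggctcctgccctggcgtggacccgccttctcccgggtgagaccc
Slc25a1: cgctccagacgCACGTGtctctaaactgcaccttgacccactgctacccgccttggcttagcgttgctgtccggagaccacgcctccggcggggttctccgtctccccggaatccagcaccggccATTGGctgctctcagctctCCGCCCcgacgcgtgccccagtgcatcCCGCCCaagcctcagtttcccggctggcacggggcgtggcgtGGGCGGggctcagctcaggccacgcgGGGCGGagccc
Got1: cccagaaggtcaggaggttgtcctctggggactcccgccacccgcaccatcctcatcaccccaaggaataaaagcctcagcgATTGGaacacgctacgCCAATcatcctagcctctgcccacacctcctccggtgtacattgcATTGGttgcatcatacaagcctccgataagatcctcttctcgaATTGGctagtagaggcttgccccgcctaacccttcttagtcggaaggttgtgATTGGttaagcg
Sdha: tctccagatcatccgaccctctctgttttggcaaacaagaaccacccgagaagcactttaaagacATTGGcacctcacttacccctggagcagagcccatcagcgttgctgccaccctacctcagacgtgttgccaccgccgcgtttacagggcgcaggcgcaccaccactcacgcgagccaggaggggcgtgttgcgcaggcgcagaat
Sdhb: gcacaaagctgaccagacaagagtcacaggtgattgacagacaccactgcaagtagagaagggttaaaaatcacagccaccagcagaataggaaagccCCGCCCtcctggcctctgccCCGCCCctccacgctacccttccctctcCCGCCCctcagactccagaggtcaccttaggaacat
Fh1: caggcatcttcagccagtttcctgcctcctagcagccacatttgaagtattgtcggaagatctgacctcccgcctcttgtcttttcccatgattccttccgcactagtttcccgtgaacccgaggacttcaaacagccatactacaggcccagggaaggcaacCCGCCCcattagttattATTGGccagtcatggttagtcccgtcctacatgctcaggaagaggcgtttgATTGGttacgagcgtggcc
The Slc25a1 window held 4 GC boxes, 1 CCAAT box and 1 E-box, the Got1 window 5 CCAAT boxes and no GC box, and the Sdhb window 3 GC boxes. Idh2 had none of the 3 motifs in the printed stretch. Over the 250 bases before the RefSeq start, GGGCGG was found in 67.7% of the 31 member promoters. It was found in 59.9% of the promoters of tested genes and in 32.9% of all 27025 promoters. CCAAT was found in 58.1% of member promoters, 36.5% of those of tested genes and 34.5% of all. CACGTG was found in 6.45% of member promoters (Pdp2 and Slc25a1), 8.75% of those of tested genes and 6.05% of all. These are matches of letters and say nothing of a factor's binding.

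Averaged over the 8 times, 3 of the 33 members rose in sh-Acsf3 livers (Idh2, Got1 and Slc25a1) and 6 fell (Mdh1, Sdha, Sdhb, Sdhc, Dlat and Pdha1). Among all 10097 genes, 8.26% rose and 6.21% fell in the same fit, 14.5% in either direction. The corresponding shares of members were 9.09%, 18.2% and 27.3%. Members were also more abundant, with a median level of 80.4 CPM against 12.6 CPM over all tested genes. Shares of members and of all genes, here and below, are therefore not matched for level or precision. Sign left aside, the median log2 difference was 0.0964 in members and 0.0962 over all tested genes. The median log2 difference of the members was -0.05, with 24 of 33 below 0, against -0.0085 over all tested genes. The difference had 1 sign at all 8 times in 4 members (Idh2, Dlat, Sdhb and Sdhc), as it did in 10.1% of all genes. These are descriptions of a chosen list, with no test over it. The changes were small: the differences ran from -0.25 (Dlat) to 0.39 (Slc25a1) on the log2 scale. Scaling mattered for their sign, since with library size alone 18 members were below 0 and their median was -0.0049. The median over all genes moved as well, to 0.0456, so the members' median stayed below it under both scalings. With library size alone only Mdh1 still fell, while Ogdh also rose. Without the 8 libraries holding pancreatic mRNA, 2 members rose and 3 fell. Without replicate 3 of both treatments, Idh2 was the 1 member that rose and Sdhb the 1 that fell. Calls over all genes dropped too, from 1461 to 1280 without the pancreatic libraries and to 787 without replicate 3.

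**Figure D1:**
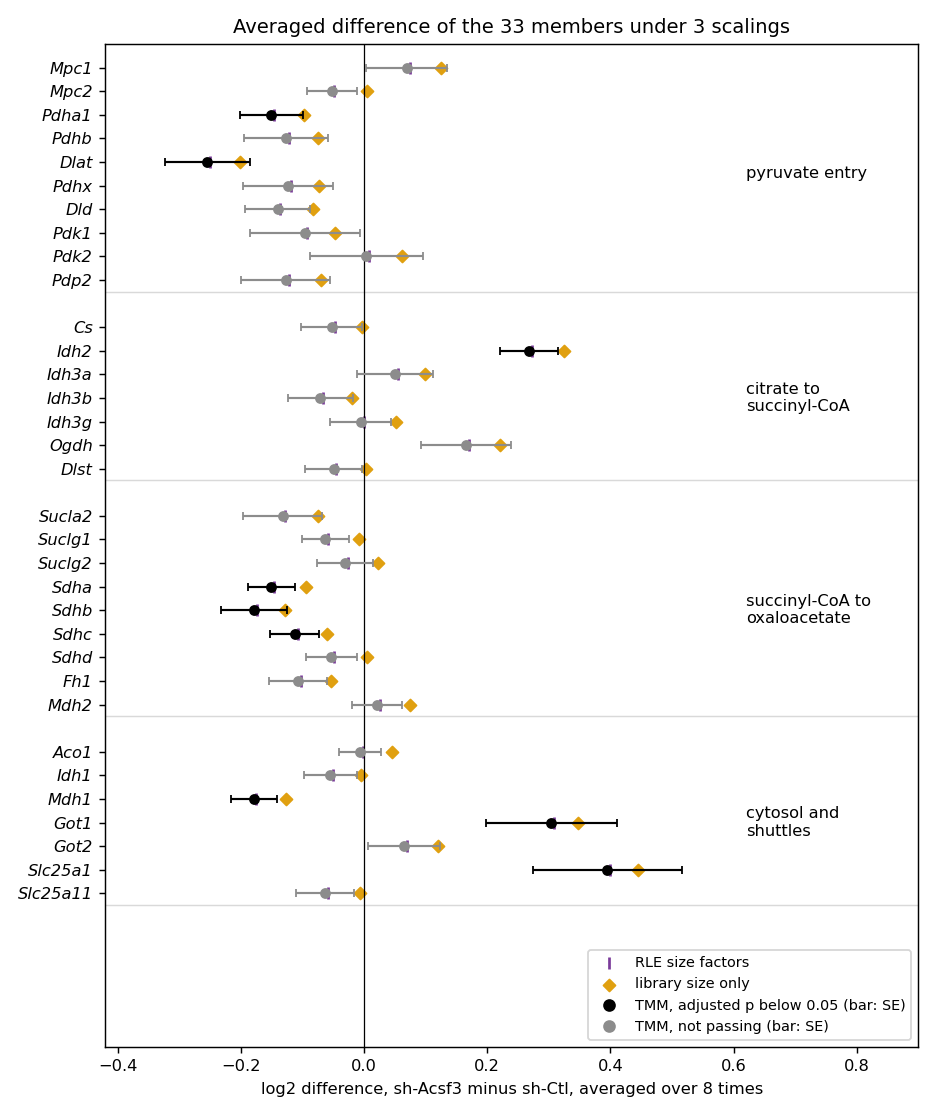
Averaged log2 difference, sh-Acsf3 minus sh-Ctl (horizontal axis), of each of the 33 members, grouped by role, with bars for the SE of the TMM-scaled fit and other marks for RLE size factors and library size alone. Under TMM 24 members lie below 0, and under library size alone all marks lie further right.

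Among the isocitrate dehydrogenases, Idh2 rose and the others did not pass. Idh2 (chr7:80094846-80115392, minus strand, GRCm38), the mitochondrial NADP-dependent enzyme that makes alpha-ketoglutarate and NADPH, ranged from 53.3 to 97.1 CPM in sh-Acsf3 libraries (median 74.4), against 50.0 to 77.6 CPM in sh-Ctl libraries (median 61.7). The ranges overlapped, but the sh-Acsf3 median lay near the top of the sh-Ctl range. Idh2 averaged 75.3 ± 10.3 CPM in sh-Acsf3 and 62.4 ± 6.91 CPM in sh-Ctl (SD within times, n = 32 each), a log2 difference of 0.27 ± 0.05 (SE), higher at 8 of 8 times (edgeR, adjusted p = 1.6e-05). At ZT3 its 4 sh-Acsf3 libraries had 62.5, 73.8, 86.6 and 68.2 CPM, against 53.8, 55.1, 54.1 and 53.2 CPM in sh-Ctl. At ZT15 they had 97.1, 72.1, 80.5 and 93.0 CPM, against 56.8, 56.8, 70.9 and 65.7 CPM in sh-Ctl. All 4 sh-Acsf3 libraries stood above all 4 sh-Ctl libraries at both times. By contrast, at ZT0 the means were 68.2 ± 10.3 CPM in sh-Acsf3 and 67.5 ± 7.07 CPM in sh-Ctl (SD, n = 4 each), well within the spread.

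Idh3a, Idh3b and Idh3g, the subunits of the NAD-dependent enzyme of the cycle, had log2 differences of 0.05, -0.07 and -0.0055, with adjusted p of 0.68, 0.42 and 0.97 (edgeR). Idh1, the cytosolic NADP-dependent isoenzyme, averaged 271 CPM in sh-Acsf3 and 281 CPM in sh-Ctl (log2 difference -0.05 ± 0.04, adjusted p = 0.46). The isoforms were also compared within libraries, as the ratio of their UMIs, which does not depend on how libraries are scaled. The pairs were chosen with earlier results known. A ratio that holds a called member reuses the counts of that call, so it is not separate support for it. The Idh2/Idh1 ratio ranged from 0.179 to 0.383 in sh-Acsf3 libraries (median 0.277) and from 0.165 to 0.339 in sh-Ctl libraries (median 0.220). The log2 ratio was higher by 0.32 ± 0.06 (SE) in sh-Acsf3 livers, at 7 of 8 times, with p = 1e-05, the smallest that 100000 permutations of treatment within times can give (two-sided, adjusted over 8 pairs 8e-05). Idh2/Idh3a was also higher, by 0.21 ± 0.07 (adjusted p = 0.0126, permutation test), at 5 of 8 times, and this call was lost without replicate 1 (0.12, adjusted p = 0.185) or replicate 3 (0.16, adjusted p = 0.0945).

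Of the malate dehydrogenases, the cytosolic one fell and the mitochondrial one did not pass. Mdh1 (chr11:21556787-21572367, minus strand, GRCm38), the cytosolic enzyme of the malate-aspartate shuttle, ranged from 474 to 701 CPM in sh-Acsf3 libraries (median 626), against 504 to 833 CPM in sh-Ctl libraries (median 699). The ranges overlapped widely, yet the sh-Ctl median lay close to the sh-Acsf3 maximum. Mdh1 averaged 613 ± 51.5 CPM in sh-Acsf3 and 694 ± 62.5 CPM in sh-Ctl (SD within times, n = 32 each), a log2 difference of -0.18 ± 0.04 (SE), lower at 7 of 8 times (edgeR, adjusted p = 0.00031). At ZT21 the sh-Acsf3 libraries had 624, 597, 636 and 627 CPM, all below the 642, 765, 788 and 731 CPM of sh-Ctl, and the groups were also apart at ZT18. Mdh2, the mitochondrial enzyme that closes the cycle, averaged 242 CPM in sh-Acsf3 and 239 CPM in sh-Ctl (0.02 ± 0.04, adjusted p = 0.82). The Mdh2/Mdh1 ratio ranged from 0.315 to 0.559 in sh-Acsf3 libraries (median 0.390) and from 0.276 to 0.463 in sh-Ctl libraries (median 0.341). It was higher by 0.20 ± 0.04 on the log2 scale at 8 of 8 times (adjusted p = 8e-05, permutation test). Without replicate 3 the Mdh1 difference was -0.14 and its adjusted p 0.0585. Wdpcp, on the opposite strand, overlaps an Mdh1 exon but held 158 UMIs over all libraries, against 128966 for Mdh1.

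**Figure D2:**
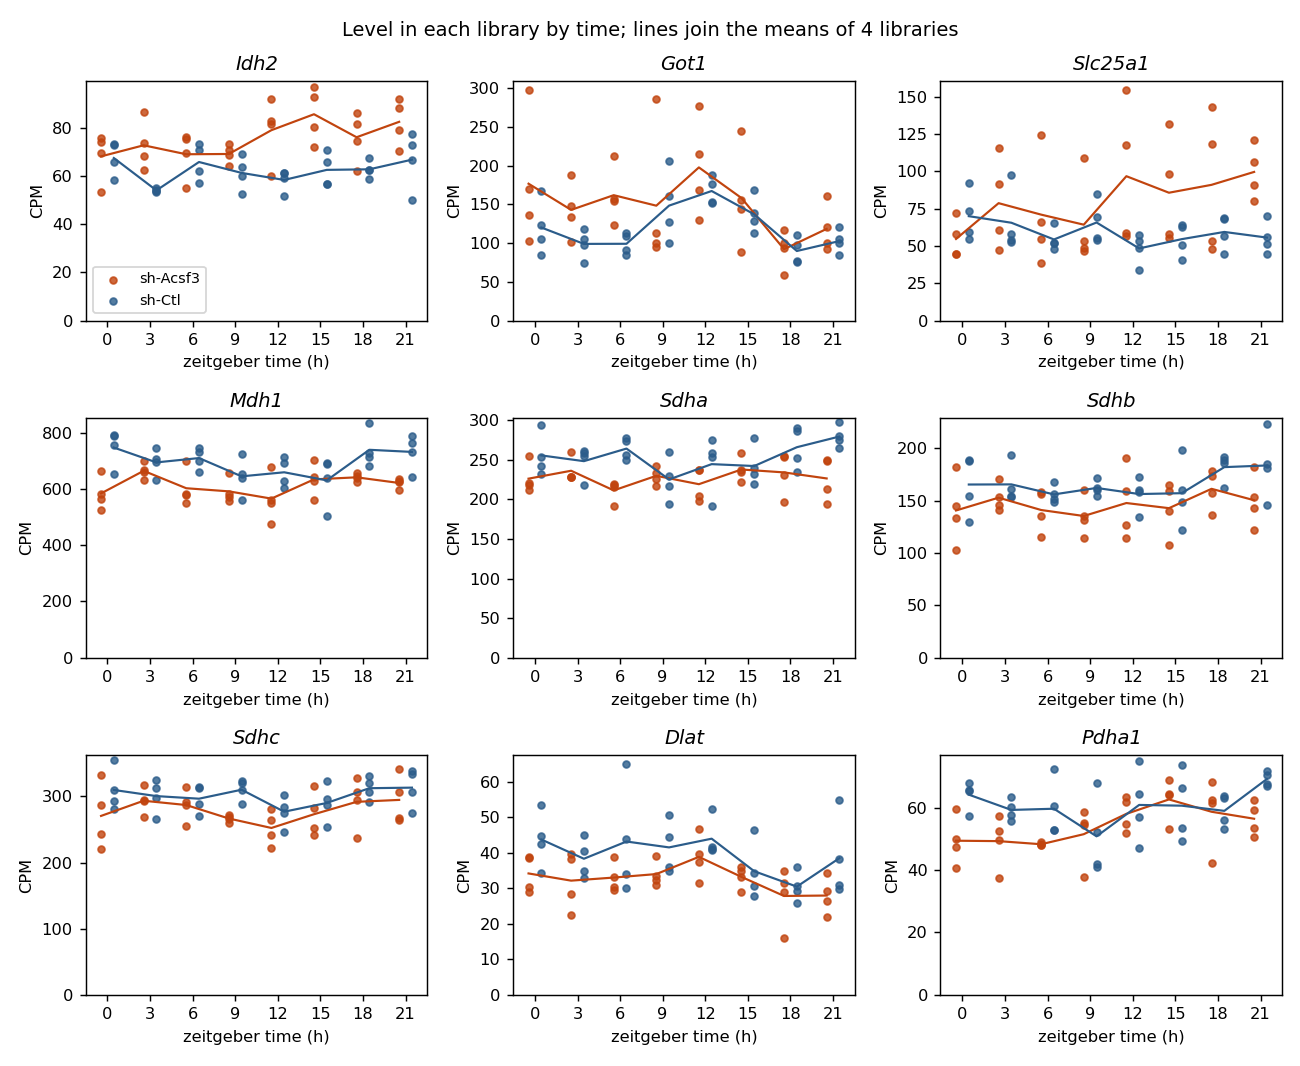
CPM in each library by zeitgeber time for the 9 members that passed the averaged test, with sh-Acsf3 points drawn left of sh-Ctl points and lines through the means of 4 libraries. Idh2 means are higher in sh-Acsf3 at all 8 times and Dlat, Sdhb and Sdhc means lower at all 8, while points of both treatments overlap at most times.

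The remaining members of the cytosolic group included 2 that rose on the strength of part of the replicates. Slc25a1 (chr16:17925223-17928219, minus strand, GRCm38), the mitochondrial citrate carrier that exports citrate for lipid synthesis, ranged from 38.8 to 154 CPM in sh-Acsf3 libraries (median 63.2), against 34.0 to 97.5 CPM in sh-Ctl libraries (median 55.5). It averaged 80.1 ± 34.6 CPM in sh-Acsf3 and 59.1 ± 13.6 CPM in sh-Ctl (SD within times, n = 32 each), a log2 difference of 0.39 ± 0.12 (SE), higher at 6 of 8 times (edgeR, adjusted p = 0.0198). The spread was wide: at ZT12 its sh-Acsf3 libraries had 58.4, 56.5, 117 and 154 CPM, and its sh-Ctl libraries 48.4, 34.0, 53.3 and 57.5 CPM. Split by replicate number, the Slc25a1 means of replicates 1 to 4 were 59.6, 60.1, 90.8 and 110 CPM in sh-Acsf3 and 58.7, 57.1, 61.0 and 59.8 CPM in sh-Ctl. The high values thus lay mainly in replicates 3 and 4 of sh-Acsf3. Without replicate 3 the difference was 0.36 (adjusted p = 0.159) and without replicate 4 it was 0.20 (adjusted p = 0.324), with neither fit passing. It also missed the threshold without the 4 libraries high in Saa1 (0.33, adjusted p = 0.0698) and in limma-voom (adjusted p = 0.0536). At ZT21 all 4 sh-Acsf3 libraries (90.7, 121, 106 and 79.9 CPM) stood above all 4 sh-Ctl libraries (51.5, 70.3, 55.9 and 44.6 CPM).

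Got1 (chr19:43499752-43524605, minus strand, GRCm38), the cytosolic aspartate transaminase, showed the same dependence. It ranged from 58.2 to 297 CPM in sh-Acsf3 libraries (median 135), against 74.6 to 206 CPM in sh-Ctl libraries (median 111). It averaged 149 ± 59.3 CPM in sh-Acsf3 and 120 ± 25.6 CPM in sh-Ctl (SD within times, n = 32 each), a log2 difference of 0.30 ± 0.11 (SE), higher at 7 of 8 times (edgeR, adjusted p = 0.0445). Its replicate means were 140, 118, 156 and 184 CPM in sh-Acsf3 and 123, 127, 123 and 109 CPM in sh-Ctl. Leaving out replicate 4 gave 0.14 (adjusted p = 0.405), and the call was also lost without replicate 1 (adjusted p = 0.0928) or 3 (adjusted p = 0.213) and in 31 of 64 fits that left out 1 library. Got1 missed the threshold in limma-voom (adjusted p = 0.0791) and without libraries holding pancreatic mRNA (adjusted p = 0.0591) too. Libraries of replicate 4 in sh-Acsf3 held 1436674 to 1991894 UMIs, against 1484486 to 4267971 UMIs in replicate 4 of sh-Ctl, and what replicate numbers stand for is not given in the labels.

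**Figure D3:**
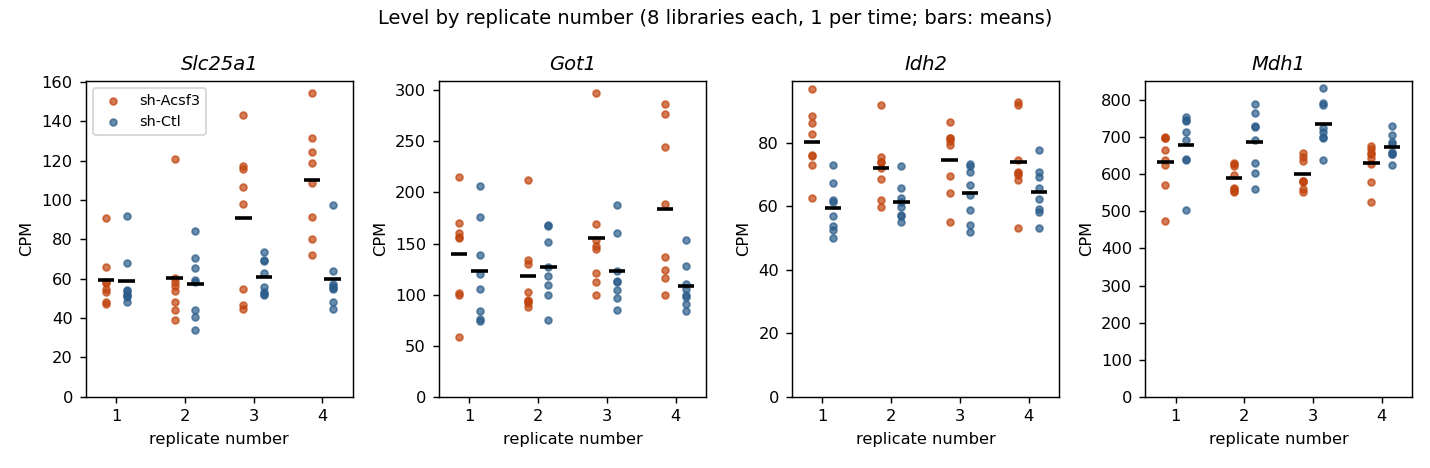
CPM by replicate number for Slc25a1, Got1, Idh2 and Mdh1, with sh-Acsf3 points left of sh-Ctl points, 8 libraries each and a bar for the mean. For Slc25a1 the sh-Acsf3 means are 59.6, 60.1, 90.8 and 110 CPM against 57.1 to 61.0 CPM in sh-Ctl, whereas Idh2 is higher and Mdh1 lower in sh-Acsf3 at every number.

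The partners of these genes did not pass. Got2, the mitochondrial aspartate transaminase, averaged 132 CPM in sh-Acsf3 and 125 CPM in sh-Ctl (log2 difference 0.06 ± 0.06, adjusted p = 0.53, edgeR), and Slc25a11, the malate and alpha-ketoglutarate carrier, 78.5 CPM in sh-Acsf3 and 82.2 CPM in sh-Ctl (-0.06 ± 0.05, adjusted p = 0.42). Aco1, cytosolic aconitase and an iron regulatory protein, averaged 187 CPM in sh-Acsf3 and 188 CPM in sh-Ctl (-0.0071 ± 0.03, adjusted p = 0.94). The Slc25a11/Slc25a1 ratio was lower by -0.41 ± 0.12 on the log2 scale (adjusted p = 0.0053, permutation test), at 6 of 8 times, but not past the threshold without replicate 3 (adjusted p = 0.0629) or replicate 4 (adjusted p = 0.183). Got2/Got1 differed by -0.21 ± 0.11 (adjusted p = 0.0976). Opposite-strand Rnf167 overlaps an exon of Slc25a11 and held 2768 UMIs, against 16011 for Slc25a11; whether counting used strand is not given, so such reads cannot be told apart.

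**Figure D4:**
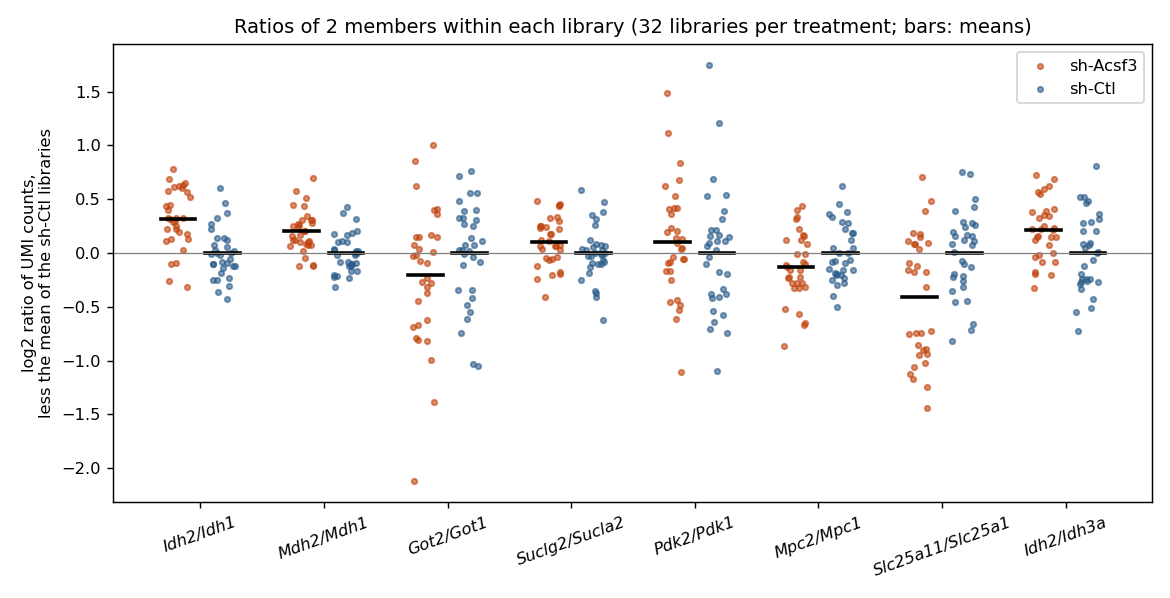
Log2 ratio of the UMI counts of paired members in each of 64 libraries, less the sh-Ctl mean of the pair, with sh-Acsf3 left of sh-Ctl and bars for means. Idh2/Idh1 and Mdh2/Mdh1 are shifted up by 0.32 and 0.20 in sh-Acsf3 and Slc25a11/Slc25a1 is shifted down by 0.41, with overlapping points in every pair.

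Succinate dehydrogenase, the complex that oxidises succinate and passes its electrons to the respiratory chain, had 3 of its 4 subunits lower. Among all tested genes 6.21% fell. Sdha, the flavoprotein subunit (chr13:74322254-74350280, minus strand, GRCm38), ranged from 192 to 260 CPM in sh-Acsf3 libraries (median 228) and from 191 to 297 CPM in sh-Ctl libraries (median 255). The low ends were close, while the sh-Ctl median again lay near the sh-Acsf3 maximum. Sdha averaged 228 ± 19.5 CPM in sh-Acsf3 and 253 ± 25.0 CPM in sh-Ctl (SD within times, n = 32 each), a log2 difference of -0.15 ± 0.04 (SE), lower at 7 of 8 times (edgeR, adjusted p = 0.0032). At ZT6 its sh-Acsf3 libraries had 219.8, 215, 192 and 219 CPM, all below the 278, 274, 250.2 and 256 CPM of sh-Ctl, and the groups were apart at ZT21 too. Sdhb, the iron-sulphur subunit (chr4:140961203-140979193, plus strand, GRCm38), ranged from 103 to 191 CPM in sh-Acsf3 libraries (median 145) and from 122 to 223 CPM in sh-Ctl libraries (median 160). The ranges overlapped over most of their width, yet the mean was lower at 8 of 8 times. It averaged 146 ± 24.6 CPM in sh-Acsf3 and 166 ± 21.6 CPM in sh-Ctl (log2 difference -0.18 ± 0.05, edgeR adjusted p = 0.0145).

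Sdhc, a membrane anchor subunit (chr1:171127165-171150603, minus strand, GRCm38), ranged from 220.03 to 341 CPM in sh-Acsf3 libraries (median 277) and from 247 to 356 CPM in sh-Ctl libraries (median 304). It averaged 279 ± 31.7 CPM in sh-Acsf3 and 301 ± 24.7 CPM in sh-Ctl, a log2 difference of -0.11 ± 0.04 (SE), lower at 8 of 8 times (edgeR, adjusted p = 0.0422). The groups overlapped at all times but ZT9, and the call was lost in 28 of 64 fits that left out 1 library and in all 4 that left out a replicate number (adjusted p of 0.0841 to 0.169). Sdhc also missed the threshold with RLE size factors (adjusted p = 0.0556), with no gene filter (adjusted p = 0.153) and with genes under 5 CPM dropped (adjusted p = 0.0847). Sdhd, the other anchor, averaged 130.2 CPM in sh-Acsf3 and 135 CPM in sh-Ctl (-0.05 ± 0.04, adjusted p = 0.45). With library size as the sole scaling the differences of Sdha, Sdhb and Sdhc were -0.09, -0.13 and -0.06 with adjusted p of 0.167, 0.0508 and 0.227, so none of the 3 passed. Without libraries holding pancreatic mRNA, Sdhb (adjusted p = 0.0950) and Sdhc (adjusted p = 0.0943) also missed the threshold. Sdha missed it without replicate 3 (adjusted p = 0.175) and Sdhb without replicate 1 (adjusted p = 0.0561) or 2 (adjusted p = 0.0813).

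Around succinate dehydrogenase, 8 of the 9 members of this stretch of the cycle had differences below 0, with a median of -0.11. Over all tested genes 5321 of 10097 were below 0. Sdhd and Suclg2 were above 0 with library size alone, where the median of all genes was 0.0456. No member outside the complex passed. Fh1, fumarase, averaged 194 ± 20.5 CPM in sh-Acsf3 and 209 ± 31.1 CPM in sh-Ctl (-0.11 ± 0.05, adjusted p = 0.115). At ZT21 its 4 sh-Acsf3 libraries (161, 148, 166 and 163 CPM) lay below its 4 sh-Ctl libraries (189, 205, 188 and 240 CPM). The succinyl-CoA ligase subunits Sucla2 (ADP-specific), Suclg2 (GDP-specific) and Suclg1 (shared) had differences of -0.13, -0.03 and -0.06, with adjusted p of 0.17, 0.73 and 0.31. The Suclg2/Sucla2 ratio differed by 0.10 ± 0.06 (adjusted p = 0.0976, permutation test).

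Pyruvate entry held 2 falls and no rise among 10 members (20% called, against 14.5% of all tested genes), with a median difference of -0.13. Dlat, the acetyltransferase core of pyruvate dehydrogenase (chr9:50634633-50659780, minus strand, GRCm38), ranged from 16.1 to 46.6 CPM in sh-Acsf3 libraries (median 32.8) and from 25.9 to 64.9 CPM in sh-Ctl libraries (median 37.2). The highest values were in sh-Ctl and the lowest in sh-Acsf3, with broad overlap between. Dlat averaged 32.6 ± 5.79 CPM in sh-Acsf3 and 39.3 ± 8.95 CPM in sh-Ctl (SD within times, n = 32 each), a log2 difference of -0.25 ± 0.07 (SE), lower at 8 of 8 times (edgeR, adjusted p = 0.0061). It missed the threshold without replicate 2 (adjusted p = 0.0644) or 3 (adjusted p = 0.0535). Pdha1, the catalytic alpha subunit whose phosphorylation shuts the complex (chrX:160122209-160138413, minus strand, GRCm38), ranged from 37.4 to 69.0 CPM in sh-Acsf3 libraries (median 54.0) and from 41.1 to 75.0 CPM in sh-Ctl libraries (median 62.0). It averaged 54.3 ± 7.52 CPM in sh-Acsf3 and 60.5 ± 8.49 CPM in sh-Ctl, a log2 difference of -0.15 ± 0.05 (SE, edgeR adjusted p = 0.0368). Its direction was less even, lower at 5 of 8 times, with the groups apart at ZT6 and ZT21. The Pdha1 call was weak: it was lost in 14 of 64 fits that left out 1 library, and without replicate 1 (adjusted p = 0.0734), 3 (-0.09, adjusted p = 0.392) or 4 (adjusted p = 0.112). It also missed the threshold with library size alone (adjusted p = 0.321), with no gene filter (adjusted p = 0.0623), with genes under 5 CPM dropped (adjusted p = 0.0790), without libraries holding pancreatic mRNA (adjusted p = 0.0611) and in DESeq2 (adjusted p = 0.0514).

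The other subunits did not pass. Dld, the shared dihydrolipoamide dehydrogenase, averaged 59.9 CPM in sh-Acsf3 and 66.5 CPM in sh-Ctl (-0.14 ± 0.05, edgeR adjusted p = 0.060). Pdhb, the beta subunit, and Pdhx, the component that binds Dld to the core, had differences of -0.13 and -0.12 (adjusted p of 0.23 and 0.29). Nor did its regulators: the kinases Pdk1 and Pdk2 had differences of -0.10 and 0.0036 and the phosphatase Pdp2 -0.13, with adjusted p of 0.54, 0.99 and 0.26. The mitochondrial pyruvate carrier subunits Mpc1 and Mpc2 differed by 0.07 and -0.05 (adjusted p of 0.55 and 0.44). The Mpc2/Mpc1 ratio differed by -0.13 ± 0.06 (adjusted p = 0.0683, permutation test) and Pdk2/Pdk1 by 0.11 ± 0.13 (adjusted p = 0.391).

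From citrate to alpha-ketoglutarate and succinyl-CoA, no member other than Idh2 passed. Cs, citrate synthase, averaged 72.5 CPM in sh-Acsf3 and 75.0 CPM in sh-Ctl (-0.05 ± 0.05, edgeR adjusted p = 0.55). Ogdh, the dehydrogenase of the alpha-ketoglutarate complex, averaged 87.6 ± 22.4 CPM in sh-Acsf3 and 76.6 ± 9.36 CPM in sh-Ctl and was higher at 7 of 8 times (0.17 ± 0.07, adjusted p = 0.122). It passed with library size as the sole scaling (0.22, adjusted p = 0.0389). Dlst, the succinyltransferase of that complex, differed by -0.05 (adjusted p = 0.55).

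At single times, 4 sh-Acsf3 against 4 sh-Ctl libraries, no member passed in edgeR, DESeq2 or limma-voom. Passing genes in edgeR made up 0.515% of all tested at ZT0, 0.0693% at ZT3, 0.218% at ZT6, 0.357% at ZT9, 1.4% at ZT12, 0.0297% at ZT15, 0.168% at ZT18 and 0.317% at ZT21. The smallest member value was Idh2 at ZT12, where its 4 sh-Acsf3 libraries had 82.8, 59.9, 81.5 and 92.1 CPM, against 61.4, 61.3, 51.8 and 59.1 CPM in sh-Ctl (log2 difference 0.43 ± 0.13, edgeR adjusted p = 0.083). At an unadjusted p under 0.05 there were 29 of 264 member-time pairs (11%), against 8.44% over all genes. The 2 groups of 4 did not overlap in 19 member-time pairs (7.2%), against 4.94% over all genes, 8 of them higher and 11 lower in sh-Acsf3. By time these were 2 at ZT0, 3 at ZT3, 3 at ZT6, 1 at ZT9, 0 at ZT12, 1 at ZT15, 2 at ZT18 and 7 at ZT21 of 33 members each. The shares of all genes were 5.17% at ZT0, 4.55% at ZT3, 3.97% at ZT6, 5.22% at ZT9, 6.82% at ZT12, 3.61% at ZT15, 3.7% at ZT18 and 6.46% at ZT21. At ZT0 27 of 33 members were below 0, with a median of -0.18, while at ZT15 14 were below 0, with a median of 0.0081. The test of the difference between times works gene by gene, so it cannot decide whether the members shifted together. For treatment by time, 0 of 10097 genes passed, and at an unadjusted p under 0.05 there were 306 genes (3.03%) and 0 members (edgeR). DESeq2 and limma-voom also called 0 members.

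For the course of the day, a 24 h cosine was fitted in each treatment. In sh-Acsf3 livers 8 of 33 members were rhythmic (24.2%, against 19.6% of all tested genes), and in sh-Ctl livers 6 were (18.2%, against 19.4%). Both treatments shared 2, Fh1 and Aco1, while 11.7% of all genes were rhythmic in both. Fh1 peaked at ZT14.0 ± 0.69 h in sh-Acsf3 and ZT14.9 ± 0.57 h in sh-Ctl (SE). Its amplitude was 0.27 ± 0.05 in sh-Acsf3 (edgeR, adjusted p = 5.1e-05) and 0.32 ± 0.05 in sh-Ctl (adjusted p = 1.6e-06) on the log2 scale. Its mean level by time ran from 160 CPM at ZT21 to 271 CPM at ZT15 in sh-Acsf3 and from 169 CPM at ZT3 to 271 CPM at ZT15 in sh-Ctl.

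Aco1 peaked at ZT20.0 ± 0.82 h in sh-Acsf3 and ZT19.8 ± 0.69 h in sh-Ctl, with amplitudes of 0.15 ± 0.03 in sh-Acsf3 (edgeR, adjusted p = 0.0014) and 0.18 ± 0.03 in sh-Ctl (adjusted p = 9.4e-05). In sh-Acsf3, the other rhythmic members were mostly of pyruvate entry: Pdp2 (amplitude 0.41, peak ZT7.42), Pdhx (0.29, ZT12.6), Mpc1 (0.27, ZT22.1) and Pdha1 (0.18, ZT15.9). Ogdh (0.23, ZT16.6) and Sdhd (0.16, ZT17.4) completed them. In sh-Ctl, the others were Idh3a (0.25, ZT15.0), Slc25a11 (0.17, ZT13.8), Mdh2 (0.17, ZT20.2) and Suclg1 (0.12, ZT16.8). Most of these calls were lost in at least 1 of the 4 fits that left out a replicate number. Those fits also called fewer genes over all. In sh-Acsf3 they called 1140 to 1695 rhythmic genes, against 1981 with all libraries. In sh-Ctl they called 1160 to 1441, against 1954. In sh-Acsf3, Ogdh was lost without replicate 2, 3 or 4 (edgeR, adjusted p of 0.0603, 0.436 and 0.0892), Sdhd without 3 or 4 (0.0788 and 0.141), Pdha1 without 2 or 4 (0.149 and 0.117), Mpc1 without 1 or 3 (0.163 and 0.0546) and Pdhx without 2 (0.0574). In sh-Ctl, Suclg1 was lost without any of the 4 numbers (edgeR, adjusted p of 0.0832 to 0.169), Idh3a without 4 (0.185), Slc25a11 without 4 (0.181) and Mdh2 without 2 (0.104). Fh1 and Aco1 in both treatments and Pdp2 in sh-Acsf3 passed in each of these 4 fits; with 8 time means, Aco1 in sh-Acsf3 missed (adjusted p = 0.0515). Pdp2 had 14.2, 16.1, 16.9 and 20.4 CPM at ZT0 and a mean of 32.4 CPM at ZT9 in sh-Acsf3, against means of 20.3 CPM at ZT0 and 29.2 CPM at ZT9 in sh-Ctl, where its amplitude was 0.13 ± 0.07 (edgeR, adjusted p = 0.40). Being rhythmic in a single treatment does not show a difference, and the test of the difference in rhythm was passed by 0 members and 0 of 10097 genes (edgeR). At an unadjusted threshold of 0.05 there were 431 genes (4.27%), with 3 members among them, Pdha1, Pdp2 and Pdhx, all of pyruvate entry. Their unadjusted p in edgeR were 0.0213 for Pdha1, 0.0293 for Pdp2 and 0.0442 for Pdhx. The amplitude was larger in sh-Acsf3 for 18 members and in sh-Ctl for 15.

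**Figure D5:**
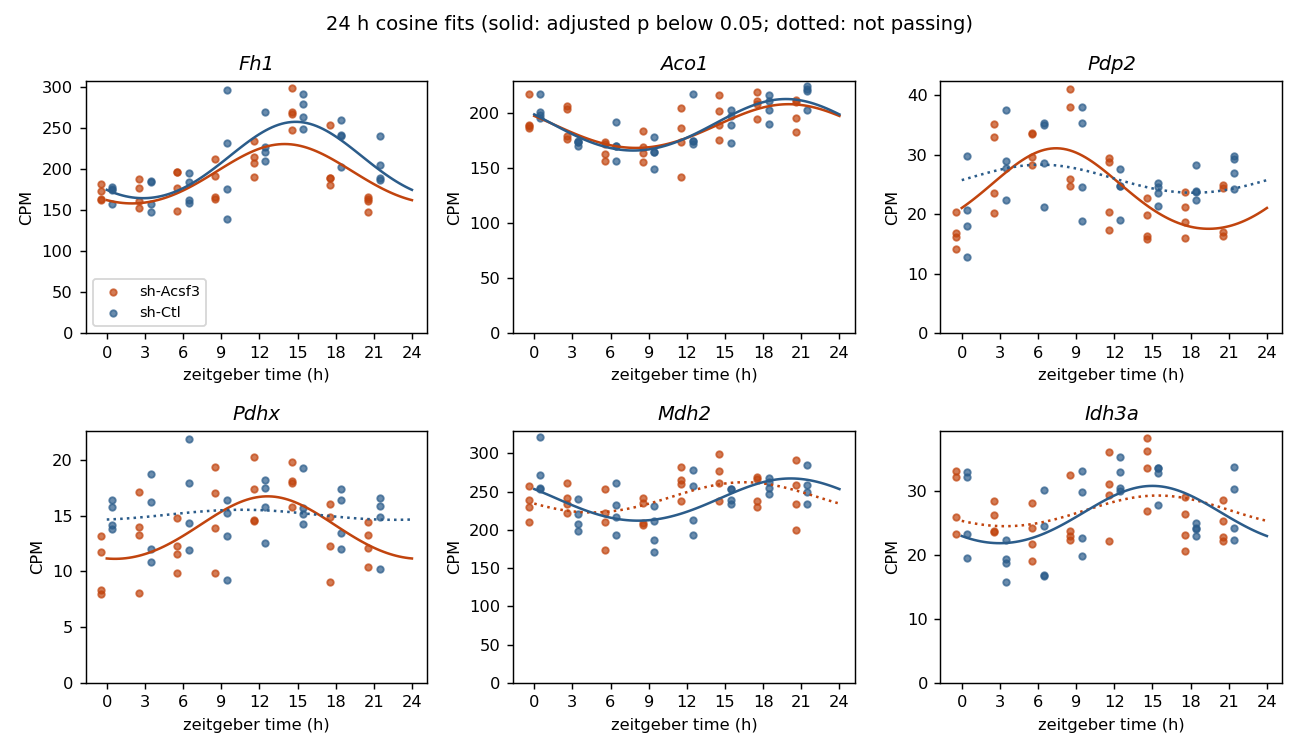
CPM by zeitgeber time with fitted 24 h cosines for 6 members, solid where the rhythm passed and dotted where it did not, sh-Acsf3 points left of sh-Ctl points. Fh1 and Aco1 are solid in both treatments, Pdp2 and Pdhx in sh-Acsf3, Mdh2 and Idh3a in sh-Ctl.

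Of 38 further genes of the pathway listed beside the set, 31 were tested, 2 rose and 2 fell. Pck2, mitochondrial phosphoenolpyruvate carboxykinase, averaged 5.09 ± 1.46 CPM in sh-Acsf3 and 3.48 ± 1.16 CPM in sh-Ctl, a log2 difference of 0.50 ± 0.11 (SE), higher at 8 of 8 times (edgeR, adjusted p = 0.00065). Slc25a22, a mitochondrial glutamate carrier, averaged 82.8 CPM in sh-Acsf3 and 65.3 CPM in sh-Ctl (0.31 ± 0.08, adjusted p = 0.0040), but missed the threshold without replicate 4 (0.24, adjusted p = 0.0861). Glud1, glutamate dehydrogenase, averaged 682 ± 50.6 CPM in sh-Acsf3 and 762 ± 64.4 CPM in sh-Ctl (-0.16 ± 0.04, adjusted p = 0.00064), and missed it with library size as the sole scaling (-0.10, adjusted p = 0.0985). Citrate lyase Acly, malic enzyme Me1, pyruvate carboxylase Pcx and cytosolic Pck1 had differences of -0.12, -0.25, -0.02 and 0.03, none of which passed (edgeR, adjusted p of 0.300 to 0.961). The 31 genes had a median difference of -0.04 and 12.9% of them passed, against 14.5% of all genes.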

How the data were processed

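Liver mRNA of 64 libraries was measured by BRB-seq, and the deposited table gives UMI counts per gene. Per the submitters' processing notes, reads were aligned with STAR to GRCm38 (mm10); annotation, strand and UMI handling are not given in the sources used here. Column names gave treatment, time and replicate, and 0 columns were left unmapped. edgeR 4.0.16 (R 4.3.3) fitted 16 group means to TMM-scaled counts of 10097 genes passing filterByExpr, with robust quasi-likelihood F tests of sh-Acsf3 minus sh-Ctl averaged over 8 times, at each time, and for treatment by time. A 24 h cosine per treatment gave rhythms. Adjusted p-values are Benjamini-Hochberg over all tested genes, at a threshold of 0.05. Ratios of UMIs (0.5 added) were tested over 8 pairs with 100000 permutations within times. CPM are TMM-scaled. Depth limits the precision of genes with few UMIs, and errors between replicates include counting error. The scripts were tested on simulated counts. DESeq2 1.42.0 and limma-voom 3.58.1 served as alternatives. Gene positions came from the GENCODE annotation of GRCm38. Members, role groups, other pathway genes, markers and ratio pairs were chosen with earlier results of these data known. Genes described in full were those past an averaged, single-time or rhythm-difference test, or rhythmic in both treatments; other pathway genes were named if past the averaged test, and 4 more (Acly, Me1, Pcx, Pck1) were chosen after their values were seen. Some of these other genes are not reported here by name.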

Additional observations from a re-analysis of the deposited data

Results flagged for a closer look

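In groups of 4 libraries at 1 time, a library can lie further from the other 3 than Dixon's critical value allows. Over 11 members and 176 groups this held for 11, and chance alone gives about 1 in 20. Got1 in replicate 4 of sh-Acsf3 at ZT9 stood at 286.3 CPM, with the other 3 at 94.3 to 112 CPM. Slc25a1 in the same library stood at 108.8 CPM, with the others at 46.5 to 53.2 CPM. Slc25a1 in replicate 4 of sh-Ctl at ZT3 stood at 97.5 CPM, with the others at 52.3 to 58.2 CPM.

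Sdha was high in replicate 1 of sh-Acsf3 at ZT3 (259.8 CPM), low in replicate 3 of sh-Acsf3 at ZT6 (192.2 CPM) and low in replicate 2 of sh-Ctl at ZT3 (218.2 CPM). Fh1 was high in replicate 2 of sh-Acsf3 at ZT18 (254.3 CPM) and low in replicate 1 of sh-Ctl at ZT0 (157.1 CPM). Aco1 was high in replicate 3 of sh-Acsf3 at ZT0 (217.0 CPM) and in replicate 3 of sh-Ctl at ZT12 (217.4 CPM). Dlat was high in replicate 4 of sh-Ctl at ZT12 (52.3 CPM, with the others at 40.6 to 41.7 CPM).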

How the results depend on the processing

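No called result changed sign in the settings run; with library size alone 6 uncalled members (Aco1, Dlst, Idh3g, Mpc2, Sdhd and Suclg2) moved from below to above 0. Of the averaged calls, Idh2 passed in every setting run (0.22 to 0.29 when a replicate number was left out), and Mdh1 in all but the fit without replicate 3. Against 3 members higher and 6 lower, limma-voom gave 1 higher, library size alone 1 lower, and fits without a replicate number 1 to 3 higher and 1 to 4 lower. Calls over all genes ran from 787 to 1361 without a replicate number, against 1461 in the main fit. They were 1443 in limma-voom, 1372 with library size alone, 1280 without pancreatic libraries and 1200 without both those and the libraries high in Saa1. In the settings added after seeing the data, 3 members were lower without libraries holding pancreatic mRNA. Without those and the libraries high in Saa1, 1 member was higher. Pck2, at 5.09 CPM in sh-Acsf3 and 3.48 CPM in sh-Ctl, was not tested when genes under 5 CPM on average were dropped. Other pathway genes, 2 higher and 2 lower, became 1 higher with that filter and 1 to 2 higher without a replicate number. Of them, 0 were lower with library size alone, 1 each with that stricter filter, with DESeq2, without pancreatic libraries or without both sets, 1 to 3 without a replicate number and 1 to 3 without a library. With no gene filter, members called went from 0 to 1 at ZT0 and ZT6 (Got1), at ZT12 and ZT21 and for treatment by time (Slc25a1). Calls over all genes also rose there, from 52 to 244 at ZT0, 22 to 198 at ZT6 and 141 to 453 at ZT12. At ZT21 they rose from 32 to 243, and for treatment by time from 0 to 273. At ZT12, 1 member (Idh2) was called with library size alone and without pancreatic libraries or both sets. Over all genes these settings called 160, 257 and 221. Without a replicate number or a library, 0 or 1 member was called at ZT12. A fit on ZT21 alone called 1 member (Slc25a1) and 31 genes over all. Rhythmic members in sh-Acsf3 (8) became 5 without pancreatic libraries or both sets, 3 with 8 time means, and 5 to 7 without a replicate number. In sh-Ctl (6) they became 3 to 5 without a replicate number. Rhythmic genes over all in sh-Acsf3 fell too, from 1981 to 1474 without pancreatic libraries, 1508 without both sets and 1319 with 8 time means. Suclg2/Sucla2 passed without libraries high in Saa1 (0.15) or both sets (0.17), and Mpc2/Mpc1 likewise (-0.16 and -0.19). Without a replicate number Suclg2/Sucla2 ran from 0.047 to 0.16, Slc25a11/Slc25a1 from -0.54 to -0.22 and Idh2/Idh3a from 0.12 to 0.30. The cause of these shifts was not tested.

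Replicate numbers are not stated to pair samples: same-numbered libraries deviated together with r over 0.1 in 7 of 32 pairs, and 35 of 64 libraries correlated best with their own number. A replicate block gave 2 members higher and 6 lower, and Got1 missed the threshold (adjusted p = 0.0594). Depth limits genes such as Mpc1, with 2743 UMIs over all libraries.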
